A study of Mus musculus with 4 samples.

Results

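The collagen genes of the mouse were followed across 4 RNA-seq libraries that the labels describe as CD4+ T cells from inflamed skin. They were chosen by name, as every gene whose symbol is Col, a number, a and a number, so no measured value decided which genes are members. The family and the gene lists were chosen with earlier results of these data known. There were 44 such genes among 55335 gene identifiers in the count tables. By role, 11 encode fibrillar collagens, 10 encode collagens of basement membranes and their anchoring zone, and 23 encode other collagens. Of the 44, 33 had a fragment in at least 1 library and 11 had none. The test between genotypes was run on the 18 that passed a filter on low counts (7 fibrillar, 4 basement membrane and 7 other), and the 15 with fragments that did not pass it are given by their counts.

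All 4 libraries came from mice of 8 to 12 weeks with floxed Mettl3 alleles, whose backs were given imiquimod cream (5%) on each of 5 days to produce a psoriasis-like inflammation. Each received 15 or 62.5 mg of cream a day, and the amount per mouse is not given here. The control group was Mettl3fl/fl, with 2 libraries, here control 1 and control 2. The knockout group was Mettl3fl/fl;Cd4-Cre, with 2 libraries, knockout 1 and knockout 2, in which Cre recombinase under the Cd4 promoter, active in developing T cells, is meant to delete Mettl3 in the T cell lineage and not in stromal cells of the skin. Mettl3 is the catalytic subunit of the enzyme that writes N6-methyladenosine on RNA. The dermis was dissociated with enzymes, collagenase among them, and its cells were stained with antibodies to CD45 and CD4. The collection gate is not stated in the labels. The labels also do not say whether the libraries of a genotype came from separate mice, so a p-value measures the spread between these libraries, which may be technical.

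Collagens are trimeric proteins of the extracellular matrix whose chains wind around each other in a triple helix, in which glycine recurs at a fixed spacing along each chain. Fibrillar collagens such as types I, III and V form the tensile fibres of the dermis, type IV forms the sheet of basement membranes under epithelia and around vessels, and type VI forms beaded filaments around cells. In skin they are made mainly by fibroblasts, with type IV also made by endothelial cells, pericytes and keratinocytes. T cells are not a known main source.

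Where 4 values follow each other, they belong to control 1, control 2, knockout 1 and knockout 2 in that order. The libraries held 4537006, 3614418, 4316904 and 4353365 counted fragments, and fragments fell on 19378, 11424, 20100 and 16273 genes. Levels are given as CPM, fragment counts scaled to a common library size with edgeR's TMM factors, and a count of 0 allows up to 0.655 to 0.792 CPM in a library (3 fragments, for counting error only). Mettl3 itself had 195, 49, 121 and 158 fragments, and its log2 fold change of knockout over control was 0.28 (SE 1.16, edgeR adjusted p 0.9997), so the targeted gene does not check the labels here. The labelled cell type was only partly borne out by its markers. Of 13 T cell markers, all had fragments in control 1 and knockout 1, while Cd4, Cd5, Cd247 and Lck were at 0 in control 2 and Cd5, Cd247 and Lck in knockout 2. Their summed level was 1097, 330, 313 and 162 CPM, against 19513, 9941, 29539 and 28117 CPM for 13 markers of macrophages and monocytes.

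The repeat that defines the family could be read in the counted exons. In the reference transcripts (the one with the longest coding sequence of each gene in GENCODE M21), the 11 fibrillar genes have 649 coding exons. Of these, 535 are a multiple of 9 bases long, the length that encodes 1 Gly-X-Y triplet, and 305 are exactly 54 bases. The 6 type IV genes have 296 coding exons, of which 12 are 54 bases. The following exons each gave fragments and carry the repeat of an abundant chain. They are coding sequence on GRCm38, written 5′ to 3′ on the gene's strand, with GGN codons for glycine in capitals.
Col1a1 exon 41, chr11:94948332-94948439, plus strand: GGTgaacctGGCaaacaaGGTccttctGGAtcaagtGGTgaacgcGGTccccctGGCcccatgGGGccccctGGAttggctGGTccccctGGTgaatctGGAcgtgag
Col1a2 exon 48, chr6:4537350-4537457, plus strand: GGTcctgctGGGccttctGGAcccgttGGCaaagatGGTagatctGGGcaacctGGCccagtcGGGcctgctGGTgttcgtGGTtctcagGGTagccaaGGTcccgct
Col5a2 exon 48, chr1:45383591-45383698, minus strand: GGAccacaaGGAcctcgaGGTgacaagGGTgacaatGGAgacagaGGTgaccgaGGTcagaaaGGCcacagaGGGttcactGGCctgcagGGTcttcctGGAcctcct
Col4a2 exon 37, chr8:11438947-11439054, plus strand: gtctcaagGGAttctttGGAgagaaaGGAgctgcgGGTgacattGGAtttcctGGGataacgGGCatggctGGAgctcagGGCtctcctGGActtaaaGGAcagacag
Col6a1 exon 26, chr10:76713873-76713938, minus strand: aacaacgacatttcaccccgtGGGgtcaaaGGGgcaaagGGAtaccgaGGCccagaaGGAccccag
The 3 fibrillar exons are each 108 bases, start on a glycine codon and hold 12 GGN codons with none missing. The type IV exon has the same length but starts inside a codon and holds 11, and the type VI exon of 66 bases begins with 7 codons without the pattern and then holds 5. The longest run of GGN at every Gly-X-Y position was 338 triplets in Col1a1, 339 in Col1a2, 344 in Col3a1 and 339 in Col5a2, against 66 in Col4a2, 87 in Col6a1 and 43 in Col23a1. Type IV helices are known to be interrupted, and the type VI helix is short. The Col1a1 exon held 383, 0, 206 and 45 fragments, and the Col1a2 exon 514, 0, 202 and 218.

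The deposited tables count each annotated exon row separately, which limits what could be seen of a gene with this many short exons and transcripts. The 44 genes have 5178 exon rows, of which 4166 (80.5%) share their coordinates with another row and hold 0 fragments in all libraries, and 352 rows held any fragment. In 23 of the genes, under 30% of the bases of the reference transcript lay in only 1 row, and 5 of these 23 gathered at least 100 fragments over the 4 libraries. In the other 21 genes, 12 did. Col4a1 and Col4a2, which encode the chains that combine into the common type IV trimer, show the limit most plainly. They lie head to head on chromosome 8 with their annotated ends overlapping by 22 bases (Col4a1 at chr8:11198423-11312826 on the minus strand, Col4a2 at chr8:11312805-11449287 on the plus strand), yet 1.86% of the Col4a1 transcript could be counted against 75.5% of that of Col4a2, and they gathered 10 and 7792 fragments. A low or absent count of a collagen gene is therefore not read here as low expression unless its exons were countable.

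**Figure D1:**
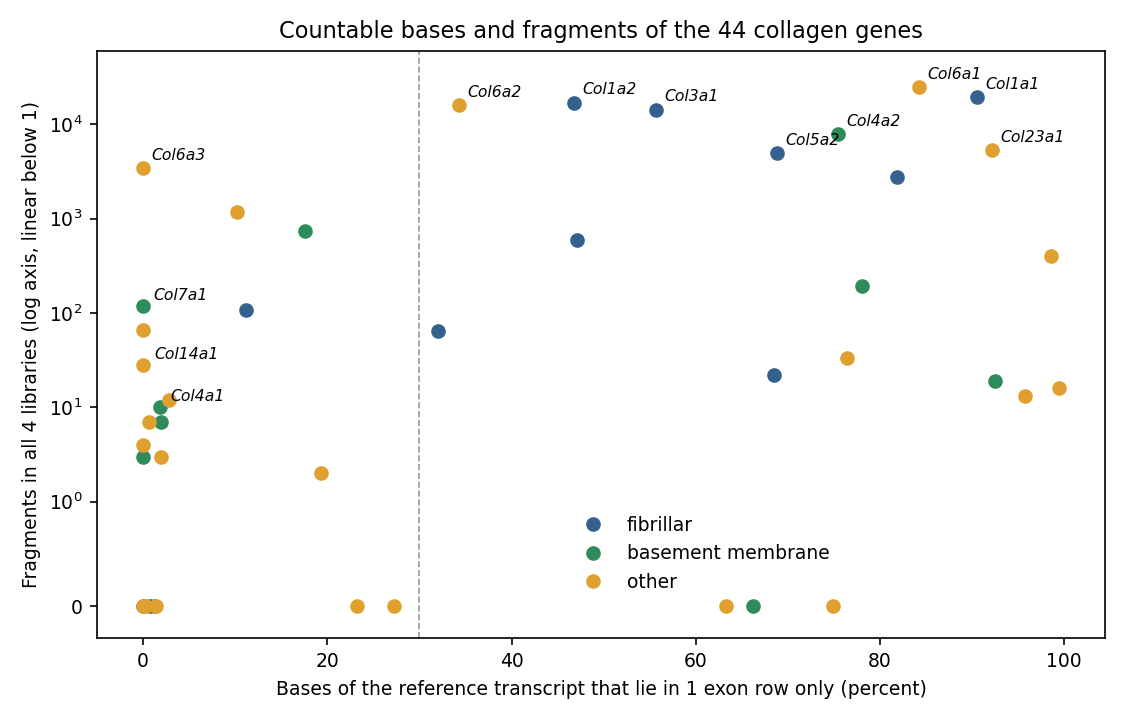
Each point is 1 of the 44 collagen genes, with the percent of bases of its reference transcript that lie in 1 exon row on the horizontal axis, its fragments summed over the 4 libraries on the vertical axis (logarithmic above 1), and its class by colour. The dashed line is at 30%, and 12 of the 21 genes to its right gathered at least 100 fragments, against 5 of the 23 to its left.

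Of all counted fragments, collagen genes took 1.504% in control 1, with a 95% exact binomial interval of 1.49 to 1.51, and 0.180% (0.176 to 0.185) in control 2. The share was 0.485% (0.478 to 0.492) for knockout 1 and 0.526% (0.519 to 0.533) for knockout 2. Both knockouts thus lay between the controls, which were the highest and the lowest of the libraries, and the genotypes overlapped. In bulk RNA, fewer cells that make collagen and less collagen RNA per cell cannot be told apart. The number of collagen genes with a fragment followed the same order at its ends, with 31, 14, 27 and 22. Fibrillar genes took 0.738%, 0.0688%, 0.320% and 0.209% of fragments, basement membrane genes 0.0891%, 0.0234%, 0.0152% and 0.0766%, and other collagens 0.677%, 0.0883%, 0.150% and 0.240%. The fibrillar and other classes kept both knockouts between the controls. In the basement membrane class, knockout 1 was the lowest library and knockout 2 was near control 1.

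**Figure D2:**
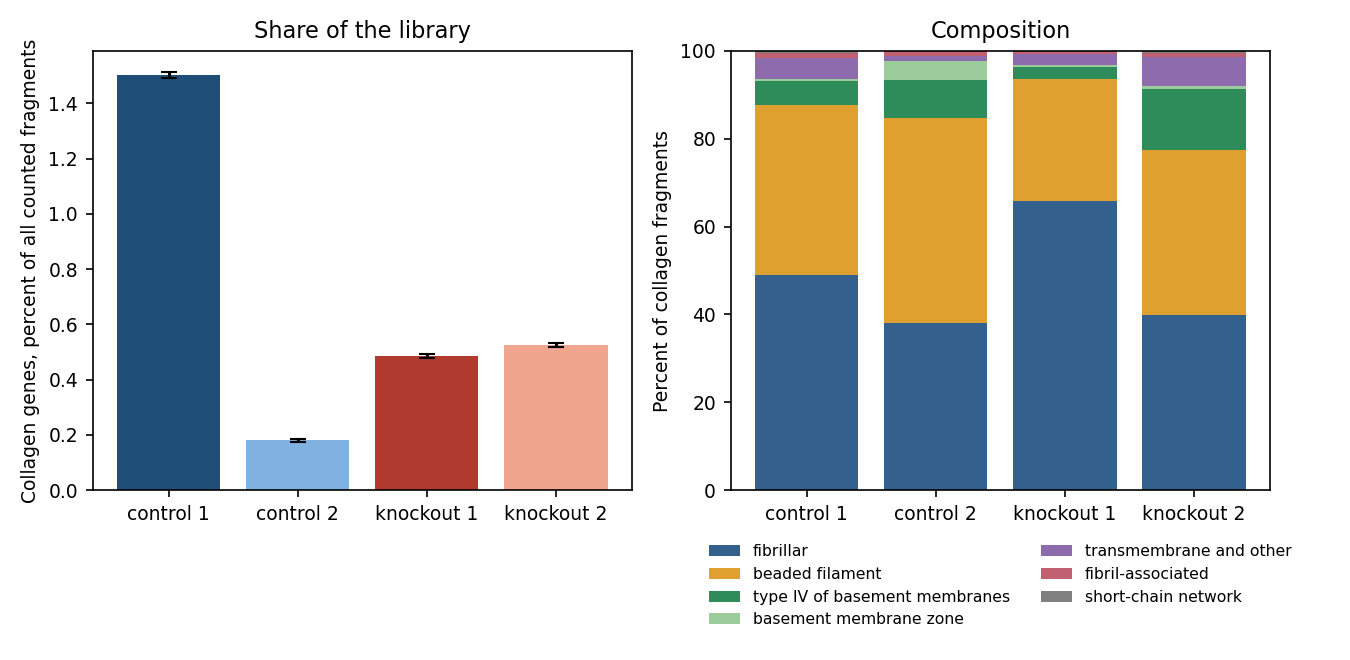
Left, the percent of all counted fragments that fell on collagen genes in each library (bars), with 95% exact binomial intervals. Right, the division of those fragments among 7 groups of collagens. Control 1 stands highest at 1.504% and control 2 lowest at 0.180%, and the fibrillar part runs from 38.1% in control 2 to 65.9% in knockout 1.

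The mixture of collagens also differed between libraries of 1 genotype. Of all collagen fragments, fibrillar genes made up 49.1%, 38.1%, 65.9% and 39.8%. Type VI genes made up 38.5%, 46.5%, 27.7% and 37.6%, and type IV genes 5.41%, 8.60%, 2.72% and 13.9%. Knockout 1 was richest in fibrillar and poorest in type IV collagen, and knockout 2 was richest in type IV. The ratio of fibrillar to type IV level was 9.07, 4.43, 24.2 and 2.86, so the 2 knockouts enclosed both controls on this measure.

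Among the fibrillar genes, those of types I and III, the main fibre collagens of the dermis, had the highest levels per countable kilobase in every library. Countable bases here are all bases of a gene that lie in only 1 exon row, also in rows outside its reference transcript. Col1a1, the chain present in double dose in type I trimers, had 2535, 194, 1357 and 347 CPM (controls 1364 ± 1655, knockouts 852 ± 714, mean and SD of n = 2). Its partner Col1a2 had 1914, 238, 854 and 904 CPM, and Col3a1, whose homotrimer co-assembles with type I in stretchable tissue, had 1828, 131, 901 and 421. For all 3 genes control 1 was highest, control 2 lowest and the knockouts in between. The controls of Col1a1 differed by 13.1-fold from each other and the knockouts by 3.91-fold. The log2 fold changes were −0.68 for Col1a1 (SE 1.27), −0.29 for Col1a2 (SE 0.97) and −0.57 for Col3a1 (SE 1.20), each with an edgeR adjusted p of 0.9997. Each was smaller than its standard error.

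The type V chains Col5a1 and Col5a2, which set the diameter of type I fibres, had the same order of controls. Col5a2 had 543, 70.5, 192 and 332 CPM, and its log2 fold change was −0.23 (SE 1.02, edgeR adjusted p 0.9997). Col5a1 had 413, 23.2, 127 and 63.8 CPM, with a log2 fold change of −1.19 (SE 1.32, edgeR adjusted p 0.9997). Both had control 1 on top and control 2 at the bottom. Col5a3, named after its values were seen because it was the only other tested type V gene, had 254, 0, 45 and 290 fragments, so knockout 2 was its highest library. Col27a1, a fibrillar collagen of cartilage and developing tissue, had 7, 0, 13 and 86 fragments, that is 1.53, 0, 3.25 and 20.3 CPM. Both knockouts lay above both controls, and Col27a1 passed the filter on low counts only through the knockouts. Its log2 fold change was 3.88 (SE 2.50, edgeR adjusted p 0.9997), and 93.4% of its fragments lay in exon rows found only in retained-intron transcripts of GENCODE M21. Among the remaining fibrillar genes, Col11a1 had 64 fragments and Col24a1 had 22, all in control 1, and Col2a1 and Col11a2 had none, with 0.745% and 0.0% of the transcript countable.

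Partner chains of 1 trimer did not keep a fixed ratio between libraries. Col1a1 made up 57.0% of type I fragments in control 1, with an exact binomial interval from 56.3 to 57.7, and 61.4% (60.4 to 62.4) in knockout 1. Its share was 44.9% (42.5 to 47.3) for control 2 and 27.7% (26.5 to 29.0) for knockout 2. Per countable kilobase, the Col1a1 to Col1a2 ratio was 1.65, 1.01, 1.98 and 0.48. These ratios depend on the rows used and are not set against the 2 chains to 1 of the type I protein. In rows of the reference transcripts, Col1a1 held 19246 fragments over 5370 countable bases in all libraries together, and Col1a2 16241 over 2504. On that measure Col1a2 was above Col1a1. The type V chains split the libraries the same way, since Col5a1 made up 43.2% and 39.8% of Col5a1 and Col5a2 fragments in control 1 and knockout 1, and 24.8% and 16.1% in control 2 and knockout 2. For both pairs, 1 control and 1 knockout were high and 1 of each was low. Control 2 and knockout 2 were also the libraries with fragments on the fewest genes, and the part of this in the chain ratios was not tested. The type VI chains were steadier, with Col6a2 making up 42.3%, 37.8%, 31.9% and 35.4% of Col6a1 and Col6a2 fragments.

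Col4a2, the alpha 2 chain of type IV, gave the most fragments of the basement membrane genes, with 798, 108, 136 and 752 CPM. Each genotype thus had 1 high and 1 low library, and the groups overlapped. Its log2 fold change was −0.03 (SE 1.20, edgeR adjusted p 0.9997). Col18a1, the source of endostatin and a collagen of vessel and epithelial basement membranes, had 331, 285, 48 and 80 fragments, or 72.3, 75.2, 12.0 and 18.9 CPM. Both controls were above both knockouts (73.7 ± 2.10 against 15.4 ± 4.90 CPM, SD, n = 2), and of the tested collagens with fragments in both controls, Col18a1 had the controls closest to each other. Its log2 fold change was −2.25 (SE 0.97), with an unadjusted p of 0.065 and an adjusted p of 0.9997 by edgeR. Of its 744 fragments, 739 lay in 1 exon row (chr10:77052178-77053407, minus strand), the last exon of a protein-coding transcript other than the reference one.

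Col4a3, a chain of the type IV network of kidney and other specialised membranes, had 27, 150, 6 and 8 fragments (5.89, 39.6, 1.498 and 1.89 CPM), all in its last exon. Both controls were above both knockouts, and control 2 alone held most of the fragments. The log2 fold change was −3.72 (SE 1.79, unadjusted p 0.089, edgeR adjusted p 0.9997). Col4a3 passed the filter on low counts only through the controls, where it was high. Neither the order of the groups nor the p is therefore support for a difference. Control 2 was also the library with 34074 CPM of 15 keratinocyte markers, against 2602 CPM in control 1, 3454 in knockout 1 and 1621 in the other knockout. Their part in the Col4a3 level was not tested. Col7a1, which forms the anchoring fibrils under the epidermis, had 20, 0, 32 and 65 fragments (4.37, 0, 7.99 and 15.4 CPM) and a log2 fold change of 2.40 (SE 2.37, edgeR adjusted p 0.9997). Its knockouts lay above its controls, but 100% of its fragments were in retained-intron rows, and 0.0% of its reference transcript could be counted. Col17a1, the hemidesmosome collagen of basal keratinocytes, had 7 fragments in knockout 1 and none elsewhere, and Col15a1 had none, with 1.99% and 1.28% of the transcript countable. Of the other type IV genes, Col4a4 had 3, 0, 16 and 0 fragments, Col4a1 3, 0, 4 and 3, and Col4a5 3 in control 1 alone. Col4a6 had none although 66.2% of its transcript was countable.

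Type VI collagen, the beaded filament that links cells to the fibrous matrix, held the chain with the highest level per countable kilobase. Col6a1 had 3058, 449, 924 and 1200 CPM. Col6a2 had 2242, 273, 433 and 657 CPM, and Col6a3 had 437, 78.4, 92.3 and 177. In all 3 chains control 1 was highest, control 2 lowest and the knockouts in between, with knockout 2 above knockout 1. The log2 fold changes were −0.72 (SE 0.93), −1.21 (SE 1.01) and −0.94 (SE 0.97), each with an edgeR adjusted p of 0.9997. Per countable kilobase in control 1, Col6a1 stood at 819 CPM, Col1a1 at 422, Col6a2 at 391, Col6a3 at 267, Col1a2 at 256, Col3a1 at 249 and Col4a2 at 158. In control 2 the order was Col6a1 at 120, Col6a3 at 47.8, Col6a2 at 47.7, Col18a1 at 33.7, Col1a1 at 32.3 and Col1a2 at 31.9 CPM per kilobase, and in knockout 2 Col4a2 (149) came second after Col6a1 (321). On this measure Col6a1 led in every library, and in knockout 1 Col1a1 (226) was next to it (247). The places below it changed between libraries. In rows of the reference transcripts, Col6a2 held 14082 fragments over 1355 countable bases in all libraries together, and Col6a1 24453 over 3455. There Col6a2 was above Col6a1, so the order depends on the rows used. Because fragments also gathered near the 3′ ends of several chains, these values rank the chains only roughly. The later type VI chains Col6a4 and Col6a5 had no fragment and Col6a6 had 2.

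Among the other collagens, Col23a1, a transmembrane collagen, had the most fragments over the 4 libraries, with 700, 20.6, 128 and 360 CPM. The controls differed by 34.0-fold, the widest gap between controls of the tested collagens that had fragments in both, and the knockouts lay between them. Its log2 fold change was −0.56 (SE 1.48, edgeR adjusted p 0.9997). Col12a1, a fibril-associated collagen of dense tissue, had 180, 20.3, 22.96 and 45.2 CPM and a log2 fold change of −1.55 (SE 1.25, edgeR adjusted p 0.9997). Col8a1, a short-chain collagen of vessel walls, had 258, 0, 29 and 113 fragments and a log2 fold change of −0.73 (SE 2.43, edgeR adjusted p 0.9997). Both again had control 1 on top and control 2 at the bottom, and 25.4% of the Col12a1 fragments lay in retained-intron rows. A single such row held 115, 77, 3 and 101 of them, and the 77 were all the Col12a1 fragments of control 2. Col28a1, a collagen of peripheral nerve, went the other way, with no fragment in either control, 21 in knockout 1 and 12 in knockout 2. Its mean in the knockouts (4.04 CPM) was at least 5.58-fold higher than the level that 3 fragments per library would give in the controls. Its edgeR p was 0.057 before adjustment, the lowest of the collagens, and 0.9997 after. Col28a1 passed the filter on low counts only through the knockouts, where it was high, so neither the bound nor the p is support for a difference. The fragments lay in 14 exon rows, none of them in retained-intron rows. The summed level of 9 Schwann cell and melanocyte markers was 222, 343, 213 and 242 CPM, with Sox10 at 0 in all 4 libraries, and their part in the Col28a1 counts was not tested.

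The remaining collagens were at the edge of detection. Col25a1 had 57, 0, 8 and 1 fragments and Col14a1, a fibril-associated collagen known as a fibroblast gene of the dermis, had 25, 0, 3 and 0, with 0.046% of its transcript countable. Col10a1 had 12, 0, 4 and 0, Col8a2 had 11, 1, 1 and 0, and Col20a1 had 10, 0, 1 and 1. Control 1 was the highest library for each of these 5, and control 2 was at 0 or 1 fragment. Col16a1, Col9a3, Col13a1 and Col6a6 had at most 7 fragments in all. Of the 11 genes without a fragment, 8 had under 30% of their transcript countable, and the other 3 were Col4a6, Col6a4 and Col9a2, for which the libraries allow up to 0.655 to 0.792 CPM each.

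**Figure D3:**
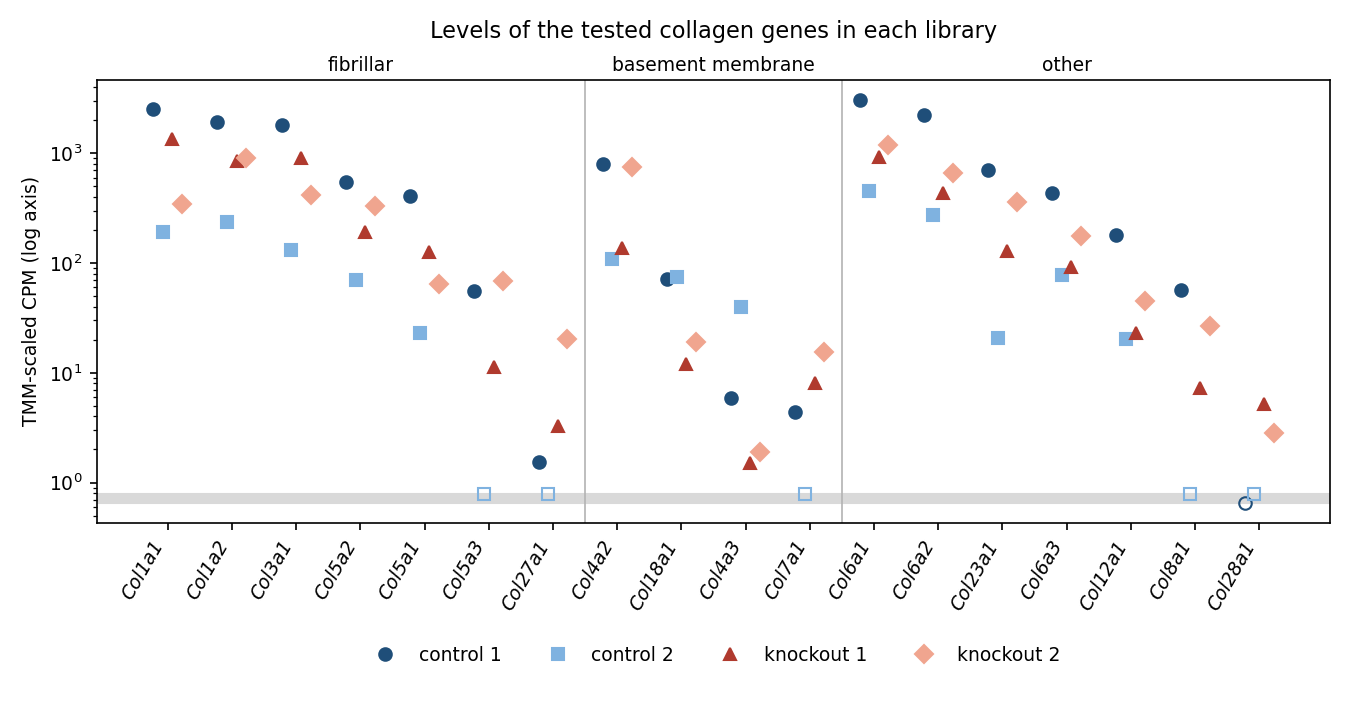
TMM-scaled CPM on a log axis of the 18 tested collagen genes in each of the 4 libraries, grouped by class. Open symbols are counts of 0, drawn at the level of 3 fragments (grey band, 0.655 to 0.792 CPM). Control 1 is the top and control 2 the bottom point for 12 of the 18 genes, with both knockouts between them.

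The comparison of genotypes asks whether collagen RNA in these libraries differed with Cd4-Cre, which is meant to delete Mettl3 in T cells. With the edgeR quasi-likelihood test, 0 of the 18 tested collagens passed an adjusted p of 0.05, and 0 of 12434 genes did (0.0%). At an unadjusted p below 0.05, edgeR had 0 of the 18 collagens and 187 genes in all. DESeq2 called 25 of 8880 genes with an adjusted p (0.282%), none of them a collagen, and limma-voom called 0 genes. These counts say that no difference was detectable with 2 libraries a genotype, not that collagens were alike: the median standard error of the 18 log2 fold changes was 1.26. Both knockouts were above both controls for 3 collagens (Col7a1, Col27a1 and Col28a1), against 19.5% of all genes tested, and below both for 2 (Col18a1 and Col4a3), against 11.2%. These shares are near or below the background. Col27a1 and Col28a1 passed the filter on low counts only through the knockouts, where they were high. Col4a3 passed it only through the controls, where it was high. With retained-intron rows left out, Col7a1 and Col27a1 were no longer tested and 1 collagen of 16, Col28a1, remained above both controls (19.1% of all genes).

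The pattern that the members did share was within the control group. Control 1 was the highest and control 2 the lowest library for 12 of the 18 tested collagens, 11 of them among the 12 most abundant, while 15.4% of all genes tested had that order. The order was singled out after the values were seen, and it is a property of 2 libraries. Both knockouts were below control 1 for 14 of 18 collagens (31.5% of all genes) and above control 2 for 16 of 18 (54.5%). The log2 fold change was negative for 14 and positive for 4, with a median of −0.62 over the collagens, −0.29 over the fibrillar, −1.14 over the basement membrane and −0.73 over the other genes, beside 0.20 over all genes tested. The sign of the median depended on which control was used. Without control 1, the median over 19 tested collagens was 2.10 (all genes 1.72), and 16 had both knockouts above the remaining control (51.8% of all genes). Without control 2, the median over 24 was −1.64 (all genes 0.05) and 19 had both knockouts below the remaining control (32.6% of all genes). Of the 17 collagens named by rule, 12 changed sign without control 1. Col18a1, Col4a3, Col7a1 and Col27a1 kept theirs whichever library was left out, and Col28a1 kept its sign in 3 refits and did not pass the filter without knockout 1. These are the genes in which the genotypes did not overlap, so leaving out a library could hardly turn the sign. Keeping it is therefore no further support for a difference.

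**Figure D4:**
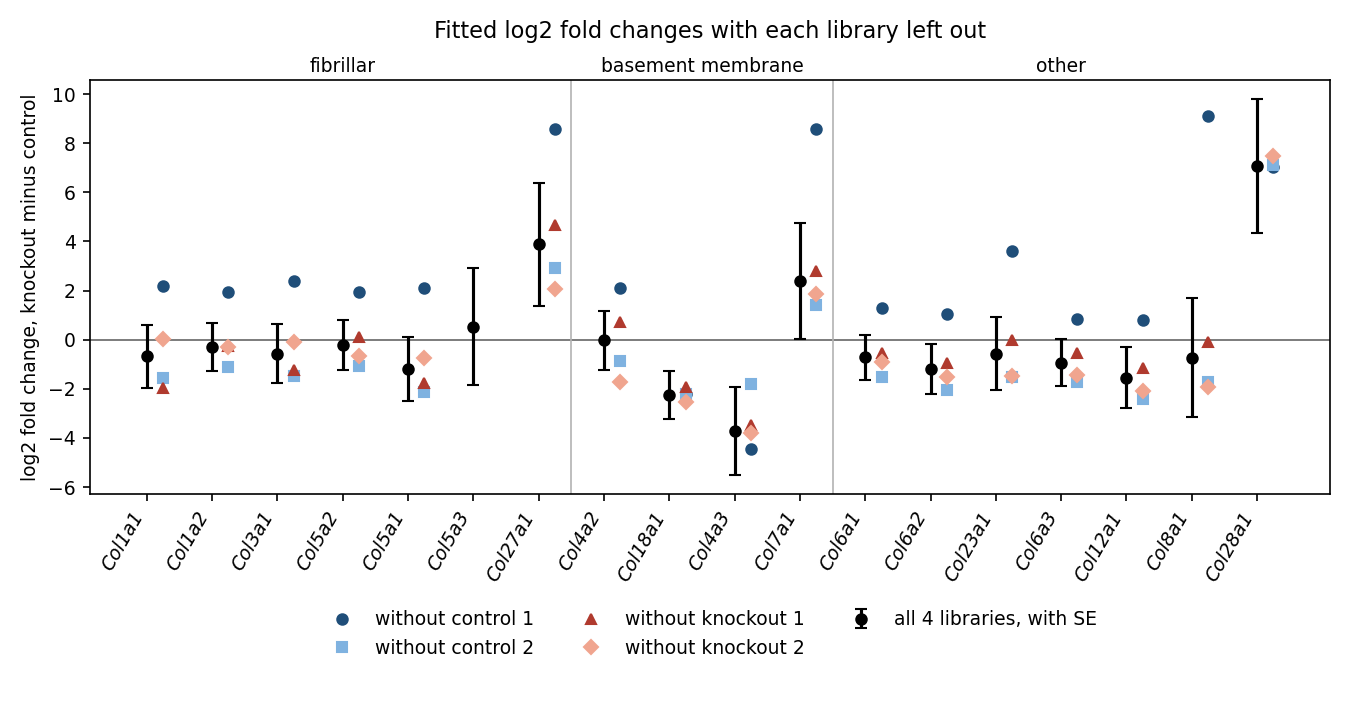
Log2 fold change of knockout over control for the 18 tested collagens, with its standard error (black), and the value refitted without each library (coloured symbols, drawn for the 17 genes named by rule). The values without control 1 lie above 0 for all but 2 of the 17 genes, Col18a1 and Col4a3, in which both knockouts were below both controls. All 4 refits of Col18a1 lie below 0, as that order of libraries leads to.

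Fragments of the longer collagen messages were unevenly placed, and control 2 saw the fewest exons. Col1a1 had fragments in 45, 9, 45 and 41 exon rows. At the depth of control 2 (734 Col1a1 fragments), the other libraries would show 42.8, 44.3 and 37.0 rows if fragments were independent molecules, which copies made by PCR are not. Col6a1 had 22, 2, 22 and 22 rows, with 20.4, 20.7 and 20.1 on the same reckoning at the 1702 fragments of control 2, and Col4a2 had 30, 1, 26 and 25, with 18.4, 25.3 and 15.3 at 411. Control 2 was lowest in each. The last exon, which holds the 3′ end where oligo-dT primes, took 76.9%, 99.4%, 68.1% and 83.0% of the Col6a1 transcript's fragments. For Col4a2 it took 76.9%, 100%, 65.7% and 83.0%, and for Col1a2 45.0%, 76.3%, 42.2% and 46.9%. Control 2 was highest and knockout 1 lowest in all 3 genes. Col5a1 ran opposite, with 30.3%, 0%, 17.3% and 2.22% in the last exon. Control 2 was also highest for Col1a1 and Col23a1. Knockout 2 was highest for Col3a1 (39.7%, 47.7%, 29.5% and 51.1%) and Col5a2 (37.2%, 32.2%, 31.8% and 46.2%). The part of this uneven coverage in the level of each collagen was not tested.

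**Figure D5:**
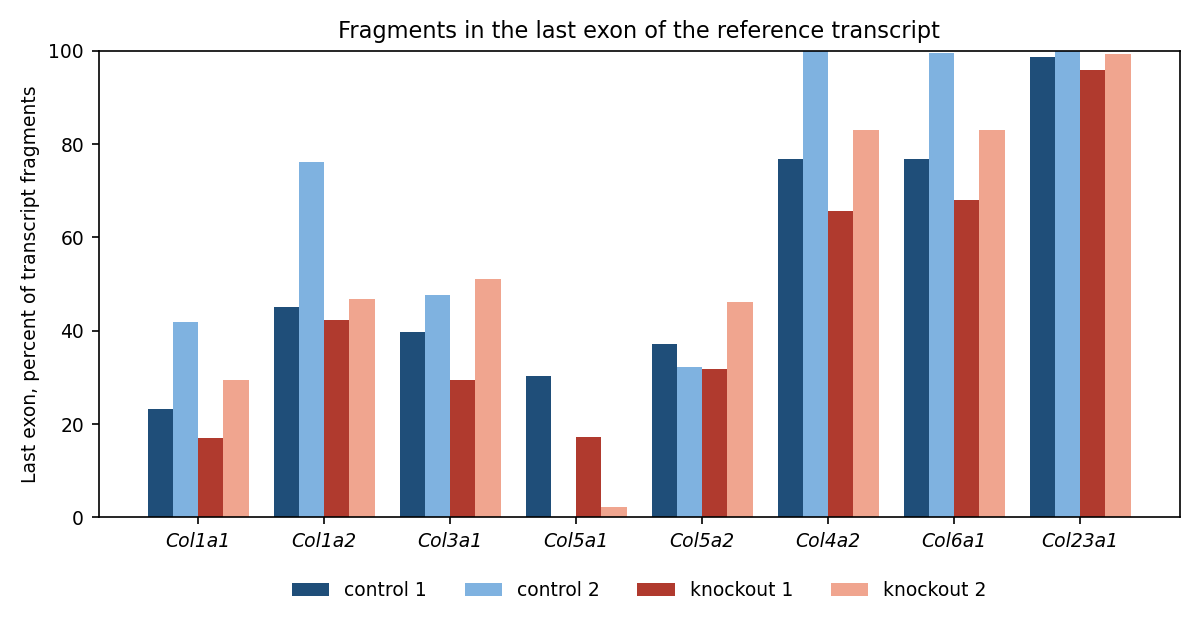
Percent of the fragments of the reference transcript that lay in its last exon, for 8 abundant collagens in each library (bars from 0). Control 2 stands highest for Col1a1, Col1a2, Col4a2, Col6a1 and Col23a1, and at 0% for Col5a1.

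Some members are neighbours. Col3a1 and Col5a2 lie tail to tail on chromosome 1 with 24614 bases between them, and both had the order control 1 highest and control 2 lowest. Col6a1 and Col6a2 lie 85161 bases apart on chromosome 10 on the same strand, with the same order. The letters before the start sites of 2 abundant fibrillar genes with control 1 highest and control 2 lowest are shown as examples. They are RefSeq windows of 250 bases on GRCm38.p6, plus strand, with capitals for every CCAAT, the box read by NF-Y, every TATAAA of a TATA box, and also every GGGCGG, the core read by Sp1, on either strand.
Col1a2, chr6:4505368-4505617: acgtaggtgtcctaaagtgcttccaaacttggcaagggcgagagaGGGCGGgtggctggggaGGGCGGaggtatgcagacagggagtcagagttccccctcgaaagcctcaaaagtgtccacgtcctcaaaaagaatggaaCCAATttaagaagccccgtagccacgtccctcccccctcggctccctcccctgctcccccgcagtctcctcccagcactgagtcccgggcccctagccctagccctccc
Col3a1, chr1:45311288-45311537: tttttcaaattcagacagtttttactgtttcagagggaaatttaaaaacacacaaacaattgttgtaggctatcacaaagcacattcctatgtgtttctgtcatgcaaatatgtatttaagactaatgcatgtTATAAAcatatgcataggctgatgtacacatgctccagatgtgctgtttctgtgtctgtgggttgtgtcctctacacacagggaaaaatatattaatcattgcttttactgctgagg
The Col1a2 window holds 1 CCAAT and 2 GGGCGG and the Col3a1 window 1 TATAAA. Over the 300-base windows of 35 collagen genes (38 start sites, 250 bases before the start and 50 after), 34.2% held CCAAT, 13.2% TATAAA and 60.5% GGGCGG, against 37.4%, 13.6% and 35.7% of 32851 windows of all genes. A match is only a run of letters and no binding was measured.

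Genes that make, modify and bind collagen did not change detectably either, and edgeR called none of their lists' members. Of 15 tested genes of synthesis in the endoplasmic reticulum, 8 had a positive and 7 a negative log2 fold change (median 0.10). P4hb, the protein disulfide isomerase subunit of prolyl 4-hydroxylase, had 1531, 866, 1618 and 1157 CPM, a far narrower range than that of Col1a1. P3h2, a prolyl 3-hydroxylase known to act on type IV collagen, had 47, 278, 8 and 6 fragments, with both controls above both knockouts and control 2 highest, as for Col4a3. Its log2 fold change was −4.59 (SE 1.66, edgeR p 0.0374 before and 0.9997 after adjustment). P3h2 too passed the filter on low counts only through the controls, where it was high. Neither its order of groups nor its p is therefore support for a difference.

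Of 11 tested genes of procollagen processing and cross-linking, 5 were positive and 6 negative (median −0.16), and 6 had control 1 highest and control 2 lowest. Loxl1, a lysyl oxidase that cross-links matrix fibres, had 661, 126, 123 and 218 CPM. Control 1 alone was high. Tgm2, a transglutaminase also made by macrophages, had 673, 129, 1462 and 1151 CPM, with both knockouts above both controls (log2 fold change 1.70, SE 0.87, edgeR adjusted p 0.9997). Of 11 small proteoglycans and glycoproteins of the fibre surface, 3 were positive and 8 negative (median −0.49). Lum, which spaces collagen fibrils, had 2229, 866, 1051 and 1156 CPM, and Fmod, which does the same in tendon and dermis, had 795, 132, 66.4 and 192 CPM. Control 1 was the highest library for both, but control 2 was the lowest only for Lum. Of 10 laminin, nidogen and perlecan genes, the partners of type IV in basement membranes, 3 were positive and 7 negative (median −0.29), and 7 had control 1 highest and control 2 lowest. Nid1, which joins the laminin and type IV sheets, had 277, 38.0, 94.1 and 347 CPM, with 1 high and 1 low library in each genotype as for Col4a2.

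Of 7 tested collagen receptors, 3 were positive and 4 negative (median −0.17). Itgb1, the beta chain of the collagen-binding integrins, had 271, 203, 168 and 254 CPM, so control 2 was not low for it. Of 8 tested genes of collagen degradation, 4 were positive and 4 negative (median 0.07). Mmp8, the neutrophil collagenase, had 343, 231, 1527 and 643 CPM, with both knockouts above both controls (log2 fold change 1.92, SE 0.65, edgeR p 0.0301 before and 0.9997 after adjustment). Ctsk, a collagen-cleaving cathepsin, had 3012, 3763, 1746 and 3456 CPM, with the genotypes overlapping. Of 12 tested genes of transforming growth factor beta, its receptors and its targets, which drive collagen genes in fibroblasts, 7 were positive and 5 negative (median 0.13).

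Markers of the cells that make collagen differed between the libraries too. The summed level of 15 fibroblast markers was 5045, 2554, 1920 and 3032 CPM, and Pdgfra, a defining receptor, was at 0 in control 2 and knockout 2 and had 11 and 2 fragments in control 1 and knockout 1. At 0 were 1, 6, 1 and 2 of the 15. Control 1 was highest for these as for the collagens, but control 2 was above knockout 1. The summed collagen level was 2.95, 0.674, 2.72 and 1.79 times that of the fibroblast markers, so control 2 was low in collagen also relative to them. The 11 endothelial markers summed to 471, 114, 97.8 and 161 CPM with 3, 7, 2 and 3 at 0, and the 10 mural cell markers to 123, 122, 35.7 and 110 CPM. Type IV level over endothelial markers was 1.71, 1.30, 1.45 and 4.69, highest in knockout 2. Both knockouts were below both controls for 5 of 13 tested fibroblast, 5 of 15 keratinocyte and 6 of 13 T cell markers, beside 11.2% of all genes. Both were above both controls for 9 of 12 macrophage and monocyte markers, beside 19.5%. The part of these cell types in the collagen levels was not tested.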

How the data were processed

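The deposited values are raw fragment counts per exon row. Per the file headers, the authors used featureCounts 2.0.1 on read pairs whose ends both mapped and were not chimeric, ignoring strand, on GRCm38 alignments and GENCODE M23, and a fragment that overlapped several rows equally was not counted. Per the submitters' processing notes, Trim Galore 0.6.7 and STAR 2.7.9a were used.

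Rows were summed per gene. Counts were compared with edgeR 4.0.16 (R 4.3.3), with TMM factors and filterByExpr with its minimum count at 10. The quasi-likelihood test was two-sided with no covariates, and Benjamini-Hochberg adjustment was over 12434 genes at 0.05. Each SE is the absolute log2 fold change divided by the square root of that test's F statistic, not a separate estimate. Median fold changes set in simulated counts were recovered. The spread in that simulation was not fitted to these libraries, so it does not check the adjustment for them. DESeq2 1.42.0, limma-voom (limma 3.58.1), other scalings and filters, rows without retained-intron transcripts and leaving out each library were alternatives. GENCODE M21 gave transcript structure, and 99.9% of member rows were in it. Shares have exact binomial intervals at 95%.

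Members and gene lists were chosen with earlier results of these data known. Named collagens are the 12 with the highest mean CPM and, in each of 7 collagen lists, the tested gene with the lowest p in each direction. In related lists, the gene with the highest mean CPM and those with the lowest p in each direction could be named. Libraries are numbered only to name them. No molecular identifiers are described, so intervals and limits from a count of 0 cover counting error only. A few items are not reported here.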

Additional observations from a re-analysis of the deposited data

How the results depend on the processing

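No alternative called a collagen. Genes called numbered 25 with DESeq2, 27 without a filter on low counts, and from 0 to 4 with each library left out in turn. The basement membrane median was 0.66 with DESeq2, 0.66 without the filter and −2.17 without retained-intron rows, where collagens with both knockouts above both controls numbered 1 of 16 tested (19.1% of all genes). Those 3 settings change which genes enter. Leaving out each library gave from 3 to 16 such collagens, of 19 to 24 tested, beside 27.5% to 51.8% of all genes. Those with the knockouts below numbered from 2 to 19, beside 19.6% to 32.6% of all genes. These refits gave medians from −1.64 to 2.10 over all collagens and from −1.48 to 2.21 over fibrillar genes. The medians ran from −1.71 to 2.09 over basement membrane and from −1.89 to 1.31 over other genes. By limma-voom the medians were 0.17 over all and 0.32 over fibrillar genes, beside 0.44 over all genes tested. Library totals in place of TMM moved the median of all genes from 0.20 to 0.09 and turned no named collagen. Log2 fold changes that changed sign with limma-voom were Col1a2 at 0.34, Col3a1 at 0.27, Col4a2 at 0.084, Col23a1 at 0.74, Col5a2 at 0.32 and Col8a1 at 2.25. Col4a2 was 0.014 with upper-quartile factors, 0.013 without the filter and 0.0077 without retained-intron rows. With each library left out, Col6a1 ran from −1.53 to 1.31, Col1a1 from −1.98 to 2.21, Col1a2 from −1.13 to 1.95, Col6a2 from −2.05 to 1.06, Col3a1 from −1.48 to 2.40 and Col4a2 from −1.71 to 2.09. Col23a1 ran from −1.53 to 3.63, Col5a2 from −1.06 to 1.96, Col6a3 from −1.71 to 0.84, Col5a1 from −2.12 to 2.11, Col12a1 from −2.41 to 0.81 and Col8a1 from −1.94 to 9.11. The cause of these changes was not tested. Where 1 library of a genotype remains, it is assumed to vary like those of the other. No paired analysis was possible because the labels number no replicates and name no pairing. Of the 18 tested collagens, 5 had 0 fragments in control 2, beside 32.7% of all genes tested, and a count of 0 there allows up to 0.792 CPM.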
